A study of Drosophila melanogaster with 16 samples.

Results

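Fly heads with human wild-type α-synuclein in neurons were compared with heads that carried the same drivers and no α-synuclein. The comparison rests on 6 libraries, neuron 1, 2 and 3 and control 1, 2 and 3, of the 13 libraries in the deposited table and the 16 samples in the labels. These 6 libraries were taken by their labels alone, while the comparison itself was chosen with earlier results of these data known. The cell type field of the control samples reads glia, as it does for the glia samples, although their titles say control and their genotype has no responder, and titles and genotypes were followed here. In all, 12286 genes of the table were considered. RNA came from whole heads of flies aged 10 days. Heads of 6 flies, equally of both sexes (3 each), were pooled for each library, and a replicate is such a pool. The neuron flies had the genotype SybQF2, RepoGAL4, QUAS-Syn/+, and the control flies SybQF2, RepoGAL4/+. Both therefore carried the neuronal driver of the Q system and the glial driver of the GAL4 system, and only the neuron flies had a responder, QUAS-Syn, under the neuronal driver. Further flies, called both (SybQF2, RepoGAL4, QUASSyn/UAS-Syn, 4 libraries) and glia (SybQF2, RepoGAL4/UAS-Syn, 3 libraries), differ from each other by the same QUAS-Syn on a background of glial α-synuclein. Their contrast, both against glia, shares no library with neuron against control. One QUAS-Syn line is named, so that the protein and the chromosome that carries it cannot be told apart.

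α-Synuclein is a small presynaptic protein that binds lipid membranes and synaptic vesicles, and it aggregates in the Lewy bodies of Parkinson's disease. Flies have no α-synuclein gene of their own, and expressing the human protein in fly neurons is a common model of its toxicity. SybQF2 uses the enhancer of Synaptobrevin, a protein of synaptic vesicles present in all neurons, including the photoreceptors of the compound eye. Repo is the transcription factor that marks nearly all fly glia. A fly head holds the brain, a pair of large compound eyes, antennae and mouthparts, head muscle, fat body and cuticle, and its RNA is a mixture of all of these.

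The neuron libraries 1, 2 and 3 held 4176009, 4158972 and 3741323 reads in genes, and the control libraries 1, 2 and 3 held 3072254, 3705086 and 2808960. Values are normalized counts, the deposited adjusted counts minus an offset of 1, and differences are neuron minus control of log2(normalized count + 1), which understates the change of genes at low level. No read in any of the 3 libraries of a group allows a mean of up to 0.919 normalized counts in neuron and 1.19 in control, a limit of 3 reads per group that covers counting error alone. The defining markers of neurons and glia were present in every library. Of nSyb, the Synaptobrevin gene whose enhancer the neuronal driver uses, there were 3584, 3040.3 and 2946 normalized counts in neuron 1, 2 and 3, against 2184, 2501 and 2192 in control 1, 2 and 3. The pan-neuronal RNA-binding protein gene elav had 1406, 1304 and 1225 in neuron libraries, against 1013, 997 and 985 in control libraries. The glial gene repo had 269.6, 251 and 218 in neuron libraries, against 181, 204 and 208 in control libraries. Each of these 3 markers was higher in every neuron library than in every control library, and the difference of repo (0.31) becomes negative when libraries are set to the neuronal lists described below. Human α-synuclein is no gene of the table, so the transgene itself was not measured here. The labels do not say whether pools of a group came from separate crosses, so p-values measure only the spread between these pools.

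RNA of organs that lie outside the head was unequal between the groups. The 201 genes of 7 lists typical of the male accessory gland, ejaculatory duct and bulb, testis, ovary, midgut, oenocytes and Malpighian tubules took 0.262%, 0.708% and 0.423% of normalized counts in neuron 1, 2 and 3. In control 1, 2 and 3 they took 1.79%, 0.986% and 1.31%. In this sum every neuron library lay below every control library, as it did for the accessory gland, ejaculatory, oenocyte and ovary lists alone. Midgut genes overlapped, with 0.412% in neuron 2 against 0.349% and 0.396% in control 1 and 2. Malpighian tubule genes overlapped too, with 0.0253% in neuron 3 against 0.0237% in control 2. The testis share of control 3, 0.00417%, was below that of every neuron library. The accessory gland gene SP was at 0 in all neuron libraries and present in all control libraries. With the genes of these lists taken out, 0 genes passed and 1418 had an unadjusted p under 0.05 (496 higher, 922 lower). The lists do not name every gene of these organs, so this does not remove the RNA of the organs. The part of these tissues in the other results was not tested.

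No single gene passed at a limma p adjusted over all 12181 tested genes under 0.05. At an unadjusted p under 0.05 there were 1502 genes (12.3% of those tested), where 609 would be reached on average with no difference at all. Of these 496 were higher in neuron libraries (4.07%) and 1006 were lower (8.26%). In 1214 genes (9.97%) all neuron libraries lay above all control libraries, and in 1356 (11.1%) all lay below. Voom, which models recovered reads with precision weights, also passed 0 genes and had 1395 at an unadjusted p under 0.05. The absence of adjusted calls depended on single libraries. Without control 2 there were 94 calls (3 higher, 91 lower), and without control 3 there were 265 (3 higher, 262 lower). These sets shared 17 genes. The counts were 44 without glia 1 and 50 without glia 2, libraries that enter through the shared estimate of the spread, and 0 without any other single library. The count at an unadjusted p under 0.05 on the higher side was 170 without neuron 1, 287 without control 1 and 1023 without glia 2. On the lower side it was 659 without neuron 1 and 587 without control 1.

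The side of the difference went with the level of the gene. Among the 2586 genes with a mean under 10, the median log2 difference was -0.54, with 36 higher and 412 lower at an unadjusted p under 0.05. Of the 4148 genes between 100 and 1000, 312 were higher and 208 lower, with a median of 0.01. Of the 723 genes at 1000 or more, 59 were higher and 35 lower. All neuron libraries lay above all control libraries in 63 of the genes with a mean under 10. They did so in 677 of those between 100 and 1000 and in 184 of those at 1000 or more. The shares over all tested genes given beside lists below thus mix these levels. Among genes at an unadjusted p under 0.05, 44 were higher by at least 2-fold in the fit and 694 lower, and 5 were higher by at least 4-fold and 425 lower. Of these 425, 78 belonged to the organ lists. The median over all tested genes was -0.06.

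**Figure D1:**
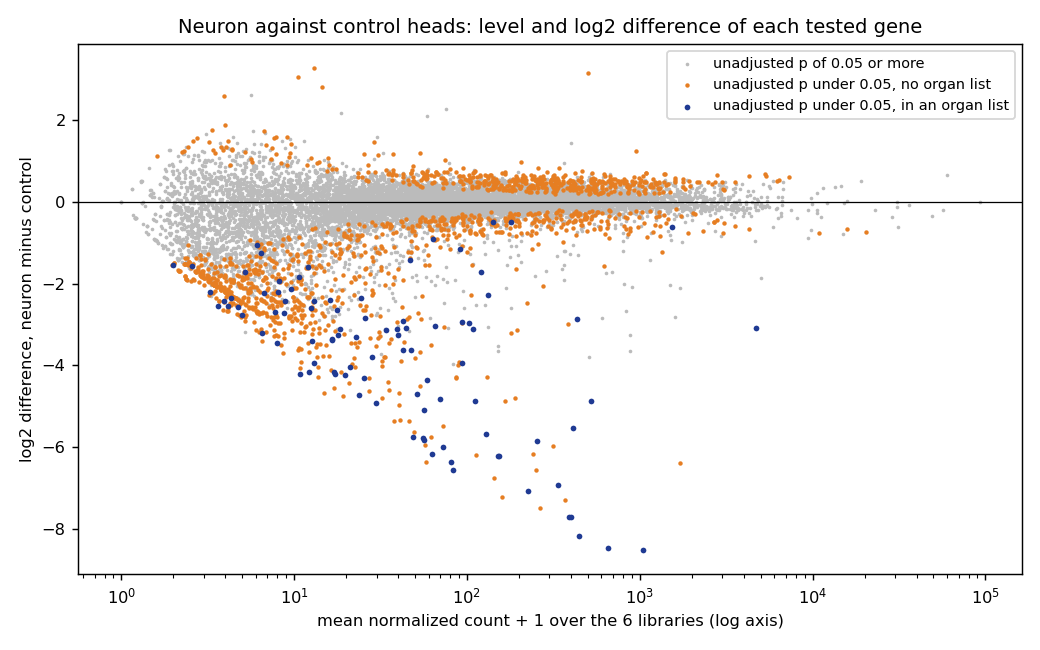
Each point is a tested gene, with its mean normalized count plus 1 over the 3 neuron and 3 control libraries on a log axis and its log2 difference, neuron minus control. Lower genes reach -8.51, for Peb, while 44 of the 496 higher genes past an unadjusted p of 0.05 lie above 1.

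The direction of many lists turned on the scaling of the libraries. Setting each library to the median of the synaptic and neuronal lists subtracts 0.34 from every log2 difference, and the median of all genes then stood at -0.40. The split at an unadjusted p under 0.05 became 25 higher and 2044 lower. Setting each library to the median of all genes, a choice made after seeing the data, adds 0.11 and gave 954 higher and 709 lower. With the 6 libraries alone in the fit there were 883 higher and 1048 lower. Statements of higher and lower below hold for the submitters' scaling, and a median is said to flip where 1 of these scalings turns its sign.

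Eye genes were higher in neuron libraries by about as much as any list described here. Photoreceptors in the fly detect light through rhodopsins, which activate a Gq protein, phospholipase C and the TRP channels, and arrestins end the response. Of 39 tested genes of this system 37 had a positive difference, a sign shared by 42.7% of all tested genes, while 57.3% were negative. Of the eye genes 27 had an unadjusted p under 0.05 and in 31 the neuron libraries all lay above the control libraries, against 4.07% and 9.97% of all tested genes. The list median was 0.52, against -0.06 over all genes, and stayed positive at 0.17 with libraries set to the neuronal lists. Within batch 1, 2 and 3 it was 0.79, 0.26 and 0.59. Summed over the list there were 207300, 147880 and 183630 normalized counts in neuron 1, 2 and 3, against 115930, 127730 and 116740 in control 1, 2 and 3. Neuron 2 was the lowest of its group and control 2 the highest of its own. Whether more photoreceptor RNA per cell or a larger share of photoreceptor tissue in the RNA lies behind such a difference cannot be told apart in whole heads.

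By role, all 7 rhodopsin genes had a positive difference, with 5 at an unadjusted p under 0.05. The main rhodopsin of the outer photoreceptors, ninaE, had 84273, 58801 and 79039 normalized counts in neuron 1, 2 and 3, against 45296, 49069.5 and 44828 in control 1, 2 and 3. Its groups did not overlap (log2 difference 0.66, SE 0.32, limma adjusted p = 0.422). Of the ocellar rhodopsin Rh2 there were 621, 562 and 551 in neuron libraries, against 335, 468 and 250.5 in control libraries (log2 difference 0.76, SE 0.24, limma adjusted p = 0.289). The ultraviolet rhodopsins of the inner photoreceptor R7, Rh3 and Rh4, differed by 0.49 and 0.49 on the log2 scale, and the rhodopsins of R8, Rh5 and Rh6, by 0.50 and 0.51. Rh5 overlapped between groups, with 691, 678 and 630.2 in neuron libraries, against 444, 672 and 347 in control libraries. The differences of the 6 compound eye and ocellar rhodopsins thus lay between 0.49 and 0.76, and none had an adjusted p below 0.289. Rh7, a rhodopsin with a role in clock neurons, differed by 0.52 and overlapped.

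All 11 genes of the transduction cascade lay above control without overlap. The visual Gβ subunit gene Gbeta76C had 1494, 1132 and 1422 normalized counts in neuron 1, 2 and 3, against 727, 849 and 892 in control 1, 2 and 3. Its partner Ggamma30A had 9934, 7694 and 8745 in neuron libraries, against 5591, 6359.5 and 5275 in control libraries. The diacylglycerol lipase gene inaE, which makes a candidate ligand of the TRP channels, had the smallest p of the eye list, with 470, 433 and 425 in neuron libraries, against 362, 343 and 329 in control libraries (log2 difference 0.36, SE 0.09, limma adjusted p = 0.159). Its difference was small and its spread within groups smaller still. Of 7 genes that end the response, all were positive and 3 had an unadjusted p under 0.05. The arrestin gene Arr2 had 27100.4, 18494 and 21888 in neuron libraries, against 14877, 17252 and 14957 in control libraries. Among 8 genes for rhodopsin maturation and the retinal chromophore, 7 were positive. The carotenoid receptor gene santa-maria had 396, 392 and 399.7 in neuron libraries, against 239, 289 and 276 in control libraries. The photoreceptor myosin gene ninaC had 7498, 4948 and 7263 in neuron libraries, against 3969, 4034 and 4466 in control libraries, with control 1, 2 and 3 close together. Among structural genes of the retina, boss, the ligand of Sevenless on photoreceptor R8, had 450.5, 337 and 390.1 normalized counts in neuron 1, 2 and 3, against 226, 259.6 and 253 in control 1, 2 and 3 (log2 difference 0.66, SE 0.18, limma adjusted p = 0.210). The rhabdomere surface protein gene chp had 4092, 2522 and 3708 in neuron libraries, against 2169.9, 1942 and 2341 in control libraries.

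Other genes of the eye were higher too, without passing the adjusted test. The homeobox gene Pph13, which controls photoreceptor genes, had 118, 83.7 and 102 in neuron libraries, against 49.6, 60.8 and 61.0 in control libraries (log2 difference 0.81, SE 0.21, limma adjusted p = 0.173). The Runx gene lz, needed for photoreceptor and cone cell fates, had 66.5, 67.3 and 67.3 in neuron libraries, against 40.9, 51.7 and 30.5 in control libraries, with neuron libraries within 1 count of each other. Photoreceptors signal with histamine, and all 6 genes of its synthesis, uptake and reception were positive, with a median of 0.55 (0.21 with libraries set to the neuronal lists). The histidine decarboxylase gene Hdc had 217, 162 and 199 in neuron libraries, against 129, 145 and 148 in control libraries. The histamine-gated channel gene HisCl1 had 56.8, 44.6 and 53.8 in neuron libraries, against 33.5, 33.5 and 29.2 in control libraries. The gene t, which encodes the enzyme that frees histamine from carcinine, had 725, 428 and 797 in neuron libraries, against 417, 358 and 404 in control libraries, and the carcinine transporter gene CG9317 had 119.7, 98.2 and 97.0 in neuron libraries, against 53.3, 85.2 and 70.2 in control libraries. Pigment genes were mixed: of 20 genes 14 were positive with a median of 0.13, which flips to -0.22 with libraries set to the neuronal lists. The drosopterin enzyme gene se was the clearest of them, with 49.7, 44.6 and 45.2 in neuron libraries, against 26.0, 34.5 and 27.8 in control libraries (log2 difference 0.65, SE 0.21, limma adjusted p = 0.309). The AP-3 subunit gene g, of pigment granule transport, had 309, 300.1 and 330.5 in neuron libraries, against 265, 276 and 239 in control libraries, and its difference of 0.27 becomes negative at that same scaling.

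**Figure D2:**
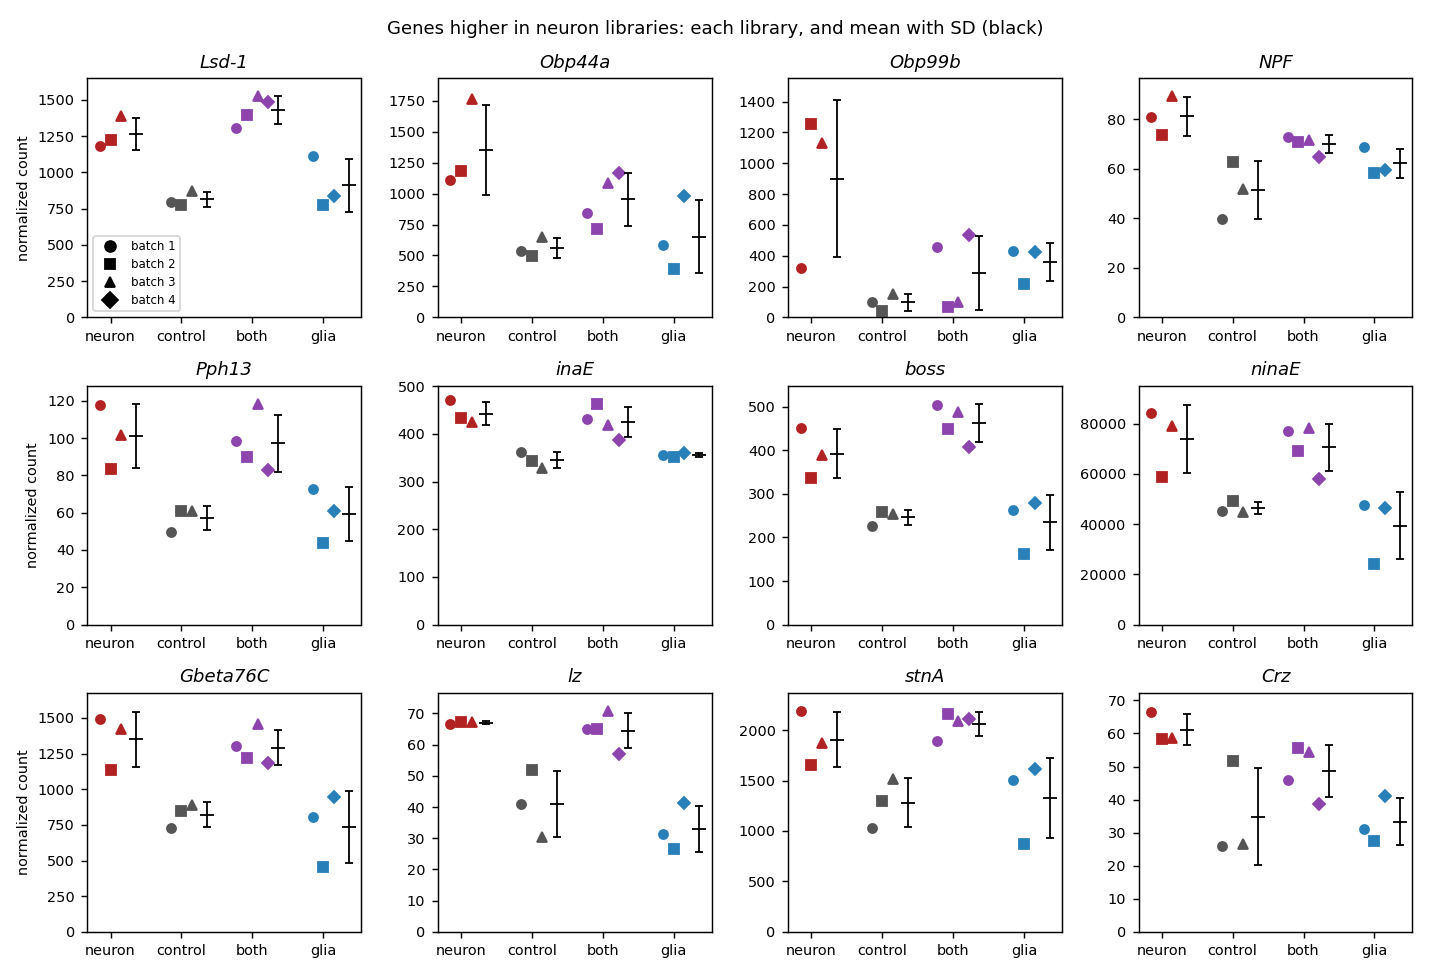
Normalized counts of 12 genes in each library (linear axes from 0, marker shape by batch), with mean and SD in black, for neuron, control, both and glia. In all 12 panels each neuron library lies above each control library, for example for Lsd-1, at 1180.3 to 1388 in neuron libraries against 776 to 872 in control libraries.

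Synaptic and neuronal genes were higher by less than eye genes. The synapse releases transmitter through SNARE proteins at active zones, and endocytosis recovers the vesicles. Of 33 genes of this machinery 31 were positive, 11 had an unadjusted p under 0.05 and 24 lay above control without overlap, where 4.07% and 9.97% of all tested genes did. The median was 0.38, and it was 0.59, 0.18 and 0.31 within batch 1, 2 and 3. Their summed level was 58112, 48594 and 49687 normalized counts in neuron 1, 2 and 3, against 37733, 41722 and 39231 in control 1, 2 and 3. All neuron sums lay above all control sums. These genes and the neuronal identity genes define the neuronal scaling, so that their medians of 0.03 and 0.00 there are near 0 by construction.

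For membrane fusion, 12 of 13 genes were positive. The NSF gene comt, whose ATPase takes apart spent SNARE complexes, had 876, 652 and 773 normalized counts in neuron 1, 2 and 3, against 482, 499 and 505 in control 1, 2 and 3. The clamp protein gene cpx, complexin, had 8427, 6446 and 7012 in neuron libraries, against 4999, 5231 and 5100 in control libraries. At the active zone all 8 genes were positive. The scaffold gene brp had 2965, 2574 and 2221 in neuron libraries, against 1756, 2202 and 1834 in control libraries. For vesicle recycling, 11 of 12 genes were positive. The endocytic gene stnA had 2190.4, 1651 and 1875 in neuron libraries, against 1029, 1299 and 1514 in control libraries (log2 difference 0.58, SE 0.21, limma adjusted p = 0.361). It lies on a transcript shared with stnB, so the counting could divide reads between them. The dynamin gene shi had 2137, 1883 and 1989.7 in neuron libraries, against 1419.7, 1659.8 and 1576 in control libraries.

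Of the genes of neuronal identity and excitability, 27 of 28 were positive with a median of 0.35. In 20 the neuron libraries lay above control without overlap, where 9.97% of all tested genes did. The potassium channel gene sei, the fly ERG channel, had 161, 157 and 179 in neuron libraries, against 104, 146 and 109 in control libraries (log2 difference 0.48, SE 0.16, limma adjusted p = 0.333). For unc80, an accessory subunit of the sodium leak channel, there were 1292, 1165 and 1048 in neuron libraries, against 765, 935 and 789.9 in control libraries. The Shaker channel gene Sh had 3285, 2936 and 2821 in neuron libraries, against 2221, 2543 and 2288 in control libraries, without overlap. A single member was lower: Irk1, an inward rectifier potassium channel, had 164, 234 and 246 in neuron libraries, against 244, 284 and 321 in control libraries (log2 difference -0.41, SE 0.16, limma adjusted p = 0.370). Its groups overlapped, since neuron 3 lay above control 1.

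Transmitter genes followed the synaptic ones. Of 51 genes 49 were positive, with a median of 0.42 (0.07 with libraries set to the neuronal lists). At an unadjusted p under 0.05, 13 were higher and 1 lower, against 4.07% and 8.26% of all tested genes. The lower one, a gene of the dopamine system, had a log2 difference of -0.61. In 33 the neuron libraries lay above control without overlap, against 9.97% of all tested genes. The median was 0.45 for acetylcholine, 0.42 for GABA and glutamate, 0.38 for dopamine and 0.39 for serotonin and octopamine. No transmitter thus stood apart by its median. The choline acetyltransferase gene Cha had 427, 357 and 383 in neuron libraries, against 221, 337 and 243 in control libraries. The nicotinic receptor subunit gene nAChRalpha6 had 896, 785 and 806 in neuron libraries, against 542, 664 and 492 in control libraries. The vesicular GABA transporter gene VGAT had 299, 221 and 233 in neuron libraries, against 139, 181 and 182 in control libraries. The octopamine receptor gene Octbeta1R had 350.3, 297 and 253 in neuron libraries, against 181, 243 and 192 in control libraries. In each of these 4 genes the groups did not overlap, and the smallest adjusted p among them was 0.364.

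Neuropeptides, the slower signals of the brain, were positive in 32 of 38 genes, against 42.7% of all tested genes. Higher at an unadjusted p under 0.05 were 9, against 4.07% of all tested genes. In 9 the neuron libraries lay above control without overlap and in 1 below, against 9.97% and 11.1%. The neuropeptide median was 0.28 and flips to -0.07 with libraries set to the neuronal lists. Within batch 1, 2 and 3 it was 0.68, 0.14 and 0.16, so batch 1 carried most of it. NPF, the fly relative of neuropeptide Y and a signal in feeding and reward, had 80.7, 73.7 and 89.3 normalized counts in neuron 1, 2 and 3, against 39.7, 62.9 and 51.7 in control 1, 2 and 3 (log2 difference 0.67, SE 0.17, limma adjusted p = 0.172). Corazonin, Crz, a stress peptide, had 66.5, 58.2 and 58.6 in neuron libraries, against 26.0, 51.7 and 26.5 in control libraries (log2 difference 0.87, SE 0.27, limma adjusted p = 0.282), with control 2 close to the neuron libraries. The tachykinin gene Tk had 159, 142 and 140.3 in neuron libraries, against 103, 129.8 and 82.2 in control libraries. The chaperone gene of prohormone convertase, 7B2, had 799, 651 and 674 in neuron libraries, against 451, 536 and 502 in control libraries, and Caps, needed for release of dense core vesicles, had 2124, 1974 and 1903 in neuron libraries, against 1419.7, 1594 and 1622 in control libraries. Clock genes differed little: 11 of 15 were positive with a median of 0.15 (-0.19 with libraries set to the neuronal lists), and per was the single one at an unadjusted p under 0.05, with 343, 234 and 380.5 in neuron libraries, against 207, 193 and 265 in control libraries, where neuron 2 lay within the control range.

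Glial genes had no common direction. Among 16 genes of glial identity and transport 12 were positive with a median of 0.31 that flips to -0.04 with libraries set to the neuronal lists. Of 9 genes of the blood-brain barrier 7 were negative, with a median of -0.07 that flips to 0.04 with libraries set to the median of all genes. The calcium exchanger gene zyd, which acts in cortex glia, had 282, 211 and 264 in neuron libraries, against 166, 151 and 220 in control libraries, and neuron 2 lay below control 3. The trehalose transporter gene Tret1-1, which feeds glia at the barrier, was lower, with 1433, 1543 and 1587 in neuron libraries, against 1787, 1927 and 2144 in control libraries (log2 difference -0.36, SE 0.13, limma adjusted p = 0.358). Of the ABC drug transporters, Mdr65, which acts at the barrier, had 202, 183 and 254 in neuron libraries, against 150, 138 and 154 in control libraries, whereas Mdr49 had 212, 255 and 236 in neuron libraries, against 319.9, 276 and 362 in control libraries. Mdr65 was thus higher and Mdr49 lower, each without overlap.

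The gene with the smallest p among the higher ones was Lsd-1, a perilipin that coats lipid droplets and controls access of lipases (FBgn0039114, at 3R, 23763857 to 23766662 of build BDGP6). Lsd-1 had 1180.3, 1221 and 1388 normalized counts in neuron 1, 2 and 3, against 796, 776 and 872 in control 1, 2 and 3 (log2 difference 0.63, SE 0.13, limma adjusted p = 0.110). Its difference was 0.67 in both against glia, where it passed (limma adjusted p = 0.00694), with 1308, 1395, 1529 and 1486 in both 1, 2, 3 and 4, against 1114, 775 and 839 in glia 1, 2 and 4. The fat body and lipid list as a whole had a median of -0.07, with 12 genes positive and 15 negative, and it flips to 0.05 with libraries set to the median of all genes. The fat body gene Obp99b, an odorant binding protein (3R, 29716254 to 29716896), had the largest difference among the named higher genes, with 317, 1252 and 1131 normalized counts in neuron 1, 2 and 3, against 100.4, 41.6 and 149.8 in control 1, 2 and 3 (log2 difference 3.15, SE 0.79, limma adjusted p = 0.167). Neuron 1 stood well below neuron 2 and 3. In both against glia it had 457, 68.3, 98.9 and 533 in both 1, 2, 3 and 4, against 432, 218 and 427 in glia 1, 2 and 4, with a difference of -0.76. Of Lsp1alpha, a storage protein of the larval fat body, there were 3.55, 39.1 and 11.5 in neuron libraries, against 0, 3.04 and 0 in control libraries. Neuron 2 had by far the most counts, and the groups did not overlap. Neuron 1 and control 2 lay closer together than the value of 1 read, which was 0.887 and 1.01 in these libraries.

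A head fat body gene with a difference in the opposite direction was fit, a satiety peptide that female heads make after protein feeding (3R, 21883924 to 21884454). It had 221, 387 and 349.7 normalized counts in neuron 1, 2 and 3, against 761, 991 and 1031 in control 1, 2 and 3 (log2 difference -1.56, SE 0.32, limma adjusted p = 0.110). In both against glia it was higher instead (0.99, limma adjusted p = 0.0600), with 1828, 779.8, 837 and 1462 in both 1, 2, 3 and 4, against 699.6, 627 and 439 in glia 1, 2 and 4. The test of the difference between the contrasts gave a limma adjusted p of 0.0646 for fit and of 0.313 for Obp99b, so neither passed.

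Further higher genes were named by the smallest p. Obp44a, an odorant binding protein, had 1109, 1183 and 1769 normalized counts in neuron 1, 2 and 3, against 537, 493 and 649 in control 1, 2 and 3 (log2 difference 1.25, SE 0.29, limma adjusted p = 0.141). The septin gene Septin4 had 286, 255 and 233 in neuron libraries, against 184, 195 and 159 in control libraries. Drep-4, a nuclease of apoptosis, had 93.1, 77.3 and 72.1 in neuron libraries, against 53.3, 39.5 and 54.3 in control libraries. CG4306, CG18302, CG10440 and CG31636 differed by 1.45, 1.19, 1.17 and 1.42, and CG9368, CG8389 and CG5466 by 0.76, 0.65 and 0.63. The adjusted p of the 15 genes ran from 0.110 to 0.185. In both against glia 12 of the 15 had the same sign and 4 passed, namely Lsd-1, CG5466 (0.49), CG9368 (0.63) and Pph13 (0.73). In that contrast 3.11% of tested genes passed on the higher side.

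Most chaperones of the endoplasmic reticulum were lower in neuron libraries, none past the adjusted test. The reticulum folds secreted and membrane proteins with the help of disulfide isomerases and Hsp90-type chaperones. Of 14 chaperone and degradation genes 12 were negative, 6 had an unadjusted p under 0.05 and 9 lay below control without overlap, where 8.26% and 11.1% of all tested genes did. The median was -0.32. Within batch 1, 2 and 3 the median was -0.43, -0.25 and -0.35. The disulfide isomerase gene Pdi had 1062, 1212 and 1229.8 normalized counts in neuron 1, 2 and 3, against 1781, 1661 and 1579 in control 1, 2 and 3 (log2 difference -0.52, SE 0.12, limma adjusted p = 0.125). Gp93, the Hsp90 of the reticulum, had 471, 500.2 and 536 normalized counts in neuron 1, 2 and 3, against 863, 725 and 777 in control 1, 2 and 3 (log2 difference -0.65, SE 0.19, limma adjusted p = 0.262). The translocon gene Sec61alpha had 536, 560.2 and 513 in neuron libraries, against 756, 785 and 705 in control libraries, and the isomerase gene CaBP1 had 141, 138 and 137 in neuron libraries, against 229, 170.3 and 182 in control libraries, with neuron libraries almost equal. The 8 stress sensors and transcription factors of the unfolded protein response had a median of -0.05, which flips to 0.07 with libraries set to the median of all genes, and none at an unadjusted p under 0.05. In both against glia the chaperone median was -0.25, with 0 of 14 positive and 0 past adjustment.

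Cytosolic heat shock genes were mixed, with 17 of 29 negative and a median of -0.05 that flips to 0.06 with libraries set to the median of all genes. The small heat shock protein gene l(2)efl had 149, 214 and 145 normalized counts in neuron 1, 2 and 3, against 267, 399 and 368 in control 1, 2 and 3 (log2 difference -1.02, SE 0.24, limma adjusted p = 0.141), and its relative CG14207 had 517, 574 and 414 in neuron libraries, against 635, 677 and 778 in control libraries. The Hsp70 co-chaperone gene stv had 593, 629 and 514 in neuron libraries, against 632, 842 and 758 in control libraries. Hsp67Ba was higher, with 49.7, 50.02 and 33.6 in neuron libraries, against 28.5, 22.3 and 31.8 in control libraries. Proteasome subunits, the protease that removes ubiquitin-tagged proteins, were negative in 30 of 32 genes with a median of -0.19 (-0.07 with libraries set to the median of all genes). In 10 the neuron libraries lay below control without overlap, against 11.1% of all tested genes. Prosalpha2 of the core had 147, 143 and 147 in neuron libraries, against 222, 175 and 195 in control libraries, and Prosalpha4 had 91.3, 112 and 140.3 in neuron libraries, against 182, 148 and 168 in control libraries. Ribosomal protein genes differed by little: 87 of 89 were negative with a median of -0.16. Of the 89, 43 lay below control without overlap, against 11.1% of all tested genes. With libraries set to the median of all genes the median was -0.04 and 67 were negative, and with the neuronal lists it was -0.50. RpS20 had 1876, 1806 and 1947 in neuron libraries, against 2379, 2311 and 2289 in control libraries. Within batch 1, 2 and 3 the ribosomal median was -0.20, -0.21 and -0.04. The germline paralog RpS5b had 0, 10.0 and 1.92 in neuron libraries, against 154, 34.5 and 6.63 in control libraries. Its groups overlapped, and control 3 was far below control 1. The ribosomal median was 0.01 in both against glia.

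Autophagy and lysosome genes had a median of 0.05 (-0.29 with libraries set to the neuronal lists), with 1 higher and 3 lower of 41 at an unadjusted p under 0.05. These counts are no larger a share than the 4.07% and 8.26% of all tested genes. Npc2a, a sterol carrier of the lysosome, had 397, 407 and 468 in neuron libraries, against 309, 355 and 349 in control libraries, a difference of 0.33 that becomes negative with libraries set to the neuronal lists. The proton pump subunit gene Vha68-2 was lower, with 612, 750.3 and 813 in neuron libraries, against 905, 943 and 1007 in control libraries (log2 difference -0.40, SE 0.16, limma adjusted p = 0.378). The 23 orthologs of Parkinson's disease genes had a median of -0.01 (0.10 with libraries set to the median of all genes). Their differences ran from -1.37 to 0.41, with 9 positive and 14 negative. At an unadjusted p under 0.05, 1 was higher and 1 lower, against 4.07% and 8.26% of all tested genes. The kinase gene Lrrk had 376, 338 and 442 in neuron libraries, against 262, 310.3 and 345 in control libraries, and Synj, a lipid phosphatase of vesicle recycling, had 638, 561 and 571 in neuron libraries, against 461, 481 and 492 in control libraries. Their differences of 0.33 and 0.30 become negative at the neuronal scaling. None of the 8 mitochondrial members, of which 6 were negative, had an unadjusted p under 0.05.

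Mitochondrial genes differed by less than muscle genes. Nuclear-encoded subunits of the respiratory chain were negative in 75 of 86 genes with a median of -0.09, which flips to 0.02 with libraries set to the median of all genes. It was -0.28, 0.27 and -0.29 within batch 1, 2 and 3, so batch 2 went the other way. Of 29 sarcomere genes 27 were negative. Lower at an unadjusted p under 0.05 were 13, and 11 lay below control without overlap, against 8.26% and 11.1% of all tested genes. The median was -0.60. Within batch 1, 2 and 3 it was -0.61, -0.04 and -1.01, and batch 2 showed almost none of it. The summed level was 78017, 115430 and 74832 in neuron 1, 2 and 3, against 113470, 117850 and 140670 in control 1, 2 and 3. Neuron 2 reached the control range. The LIM protein gene Mlp60A of the Z-disc had 737, 838 and 769.6 normalized counts in neuron 1, 2 and 3, against 1483, 1242 and 1548 in control 1, 2 and 3 (log2 difference -0.86, SE 0.24, limma adjusted p = 0.212). The muscle actin gene Act57B had 2728, 2711 and 2189.5 in neuron libraries, against 3467, 3189.9 and 4224 in control libraries. The α-actinin gene Actn had 713, 1010.4 and 613 in neuron libraries, against 1086, 1164 and 1239 in control libraries, and sls, the fly titin, had 13449, 21322 and 12211 in neuron libraries, against 22666, 23637 and 29835 in control libraries. The tropomyosin gene Tm1 had 1162, 1259.6 and 991 in neuron libraries, against 1392, 1425 and 1495 in control libraries. None of these 5 genes overlapped between groups. The sarcomere median in both against glia was -0.61.

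**Figure D3:**
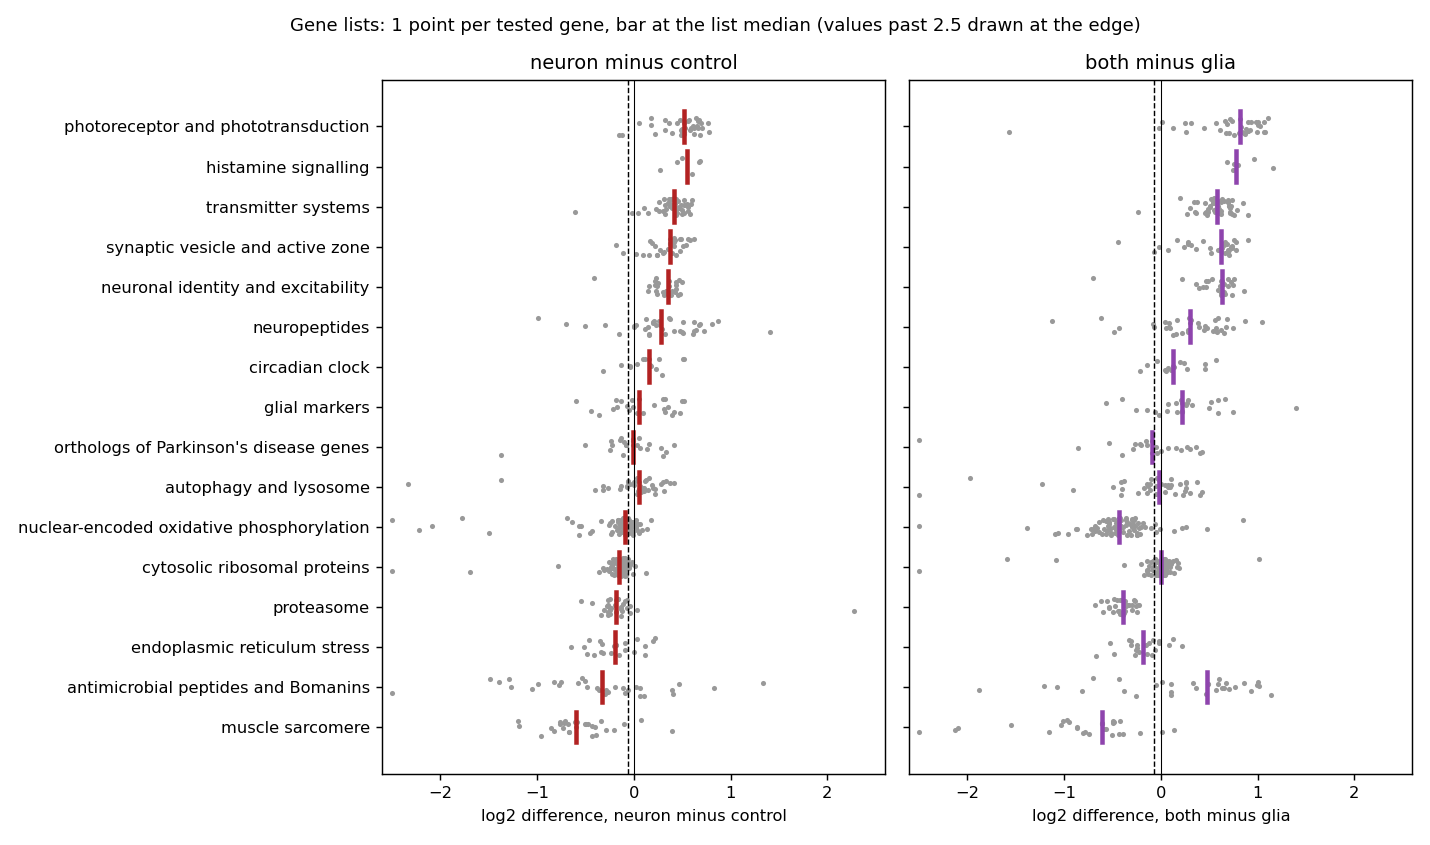
Log2 differences of the tested genes of 16 lists, neuron minus control on the left and both minus glia on the right, with a bar at each list median, a dashed line at the median of all genes and values past 2.5 drawn at the edge. Eye, transmitter and synaptic lists lie to the right of 0 in both panels and muscle to the left, while antimicrobial peptides have a median of -0.33 on the left and 0.47 on the right.

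Immune genes differed widely between pools of the same group. Antimicrobial peptides and Bomanins, the effectors of the Toll and Imd pathways, had a median of -0.33. Of the 32 tested, 2 were higher and 1 lower at an unadjusted p under 0.05 (4.07% and 8.26% of all tested genes). Their median within batch 1, 2 and 3 was -0.36, -1.21 and 0.56, and batch 3 was opposite to batch 1 and 2. Summed levels were 6116, 5884 and 9403 in neuron 1, 2 and 3, against 8166, 13674 and 5410.1 in control 1, 2 and 3. Control 2 stood highest and control 3 lowest of the 6. CG15068, an immune-induced peptide, had 437, 372 and 480.4 in neuron libraries, against 238, 360 and 160.4 in control libraries, and the attacin gene AttC had 16.8, 23.6 and 18.3 in neuron libraries, against 23.6, 117 and 42.4 in control libraries. The groups of CG15068 did not overlap, and those of AttC did. The stress peptide gene TotM had 9.75, 26.4 and 5.76 in neuron libraries, against 28.5, 95.3 and 18.6 in control libraries, with neuron 2 above control 3. Recognition and signalling genes were negative in 23 of 33, with a median of -0.14 (-0.49 and -0.03 at the other scalings). The Toll pathway factor dl had 335, 403 and 318 in neuron libraries, against 376, 457 and 628 in control libraries, with the groups overlapping.

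The largest negative differences belonged to genes of the male reproductive tract. The accessory gland makes seminal fluid proteins, and oenocytes make cuticular hydrocarbons. Of 58 tested accessory gland genes 51 were lower at an unadjusted p under 0.05 and 44 lay below control without overlap. Over all tested genes these shares were 8.26% and 11.1%. The median of the accessory gland genes was -3.99. Their summed level was 445, 1179.6 and 914 in neuron 1, 2 and 3, against 18011, 3505 and 7423 in control 1, 2 and 3. The sex peptide gene SP, whose product changes female behaviour after mating, had no read in any neuron library, against 186, 10.1 and 176 in control 1, 2 and 3. That is at least 135-fold lower at the limit set by 3 reads over the group. Acp36DE, needed for sperm storage, had 37.2, 19.1 and 16.3 normalized counts in neuron 1, 2 and 3, against 1746, 169 and 1135 in control 1, 2 and 3 (log2 difference -4.88, SE 0.95, limma adjusted p = 0.108). Control 2 was the lowest control in all 8 organ genes named by the smallest p. The other 6, Acp62F, Acp53C14b, Mst57Dc, Sfp96F, Sfp24C1 and aqrs, had adjusted p from 0.0954 to 0.108.

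Genes outside the organ lists with the smallest p for lower values were similar in size. CG42852 had 0.887, 0 and 0.961 normalized counts in neuron 1, 2 and 3, against 485, 27.4 and 337 in control 1, 2 and 3 (log2 difference -6.75, SE 1.14, limma adjusted p = 0.0954), and BG642163 had no read in neuron libraries, against 160, 20.3 and 162 in control 1, 2 and 3. Of the 15 named, 12 had their lowest control value in control 2. They were CG17472, CG42481, CG15635, CG11598, CG31680, CG11037, CG42789, CG43050, CG6168, CG17097, CG42852 and BG642163. The other 3 were CG18869, CG10365 and Obp56g. CG10365 stood apart by its even level, with 215, 237 and 252 normalized counts in neuron 1, 2 and 3, against 326, 390.4 and 403 in control 1, 2 and 3 (log2 difference -0.66, SE 0.12, limma adjusted p = 0.108). CG18869 had 0.887, 0 and 0.961 in neuron libraries, against 16.1, 10.1 and 9.28 in control libraries, and it passed in both against glia, with a difference of -3.04 (limma adjusted p = 0.00313). Obp56g had 121, 70.0 and 91.3 in neuron libraries, against 738, 459 and 172 in control libraries, in the same order among controls as the ejaculatory bulb gene Peb, which had 13.3, 0.909 and 0 in neuron libraries, against 4151, 1908 and 167 in control libraries. PebII, of the same organ, had 4.43, 0 and 0 in neuron libraries, against 2854, 954 and 87.5 in control libraries. In both against glia 14 of the 15 named genes had the same sign and 7 passed, where 4.75% of tested genes passed on the lower side. Obp56g was higher there instead (0.83, limma adjusted p = 0.157). It had 195, 178, 200 and 178 in both 1, 2, 3 and 4, against 111, 88.7 and 117 in glia 1, 2 and 4. The test of the difference between the contrasts gave Obp56g a limma adjusted p of 0.0783. Among cytoskeleton genes the smallest p was that of the microtubule protein gene Map205, with 750.2, 739 and 659 in neuron libraries, against 941, 932 and 908 in control libraries.

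Of all tested genes, 8.26% were lower at an unadjusted p under 0.05. Among the other organ lists, 9 of 11 oenocyte genes were, with a median of -2.86. Cyp4g1, the oenocyte enzyme of hydrocarbon synthesis, had 524, 2652 and 318 normalized counts in neuron 1, 2 and 3, against 16569, 3818 and 4388 in control 1, 2 and 3. Midgut genes had a median of -1.51, with 51 of 61 negative and 11 lower at an unadjusted p under 0.05, and the brush border myosin gene Myo61F had 49.7, 64.6 and 52.8 in neuron libraries, against 128, 109.5 and 137 in control libraries. Testis genes had a median of -2.38. Their summed level was 233, 174 and 181 in neuron 1, 2 and 3, against 2232, 2115 and 155 in control 1, 2 and 3, so that control 3 was level with the neuron libraries. In all, 232 genes had no read in any neuron library while their control mean was above its limit of 1.19. Of these, 23 belonged to the organ lists, which do not name every gene of these organs. How many of the remaining genes come from the same organs was not tested. The reverse held for 8 genes.

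**Figure D4:**
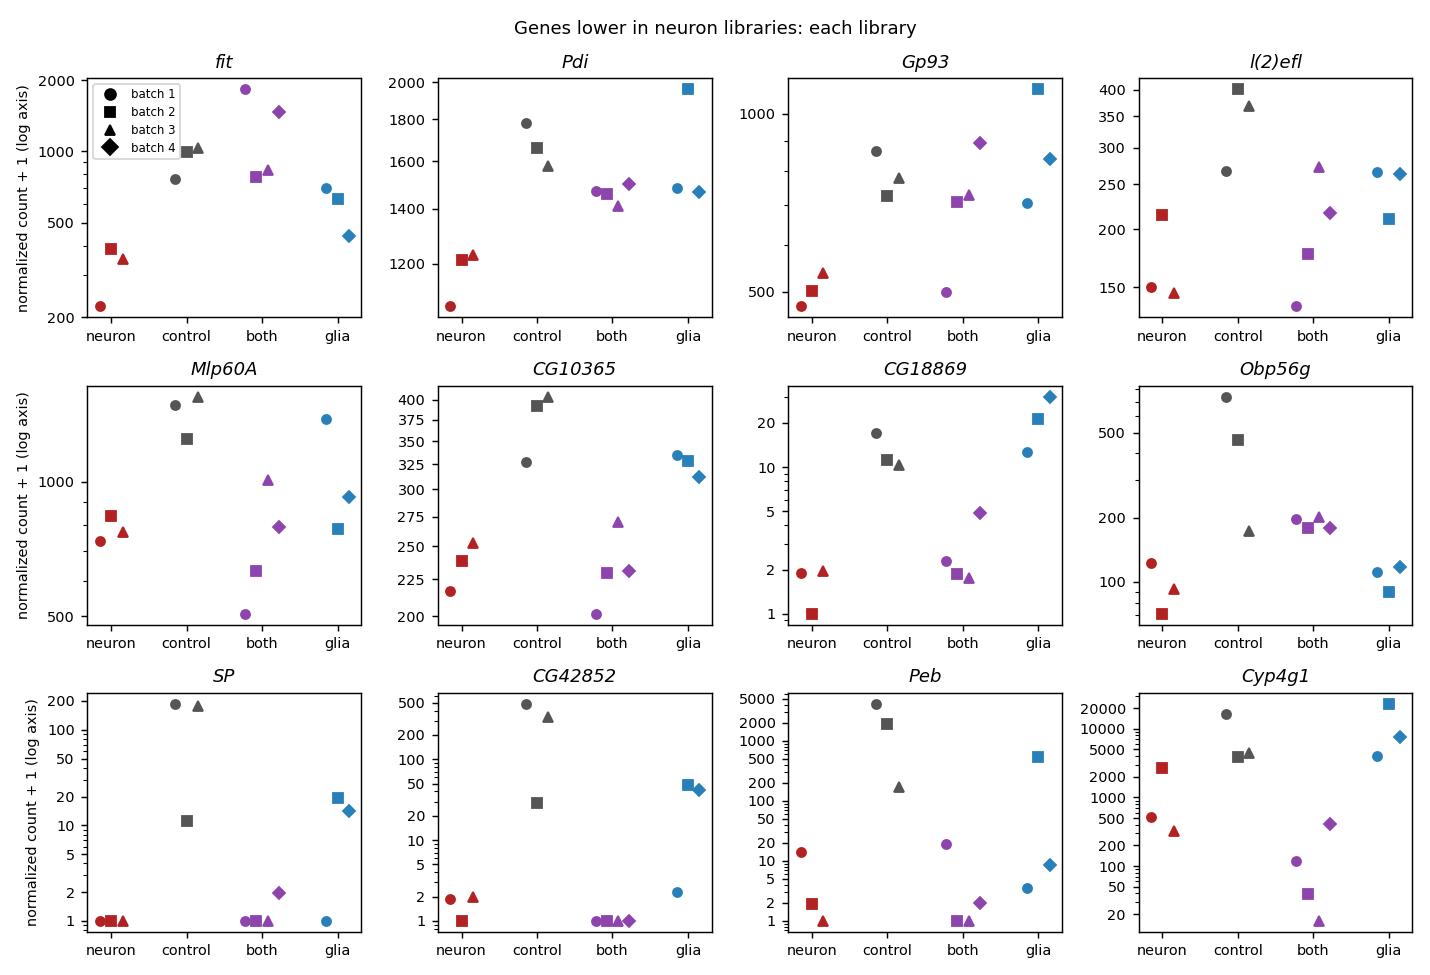
Normalized counts plus 1 of 12 genes in each library on log axes, marker shape by batch, for neuron, control, both and glia. All 12 have every neuron library below every control library, and the seminal fluid gene SP and CG42852 have their lowest control value in control 2.

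Among 7 genes linked to transgene vectors, w and Hsp70Bb had far higher values in batch 3. The other 5 (y, Hsp70Ab, Hsp70Ba, Hsp70Bbb and Hsp70Bc) had at most 143 normalized counts in any of the 6 libraries and none was far higher in batch 3 in both groups. Hsp70Ba had reads in batch 3 alone of these 6, 4.80 in neuron 3 and 6.63 in control 3. The eye colour gene w, a copy of which marks many fly transgenes, had 224, 436 and 3770 normalized counts in neuron 1, 2 and 3, against 189.7, 408 and 2987 in control 1, 2 and 3. Hsp70Bb, of the heat shock family whose promoter parts are used in such vectors, had 44.3, 156 and 5688 normalized counts in neuron 1, 2 and 3, against 40.9, 148 and 3729.6 in control 1, 2 and 3. Both groups were low in batch 1 and 2 and high in batch 3, and their differences of 0.22 and 0.26 turn negative without neuron 3, without control 1 or without control 2. In batch 3 and 4 the remaining libraries were high as well, for w with 188, 511, 3663 and 4252 in both 1, 2, 3 and 4 and 195, 277 and 3431 in glia 1, 2 and 4. What differed between the batches is not given in the labels, and its part in the other results was not tested.

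**Figure D5:**
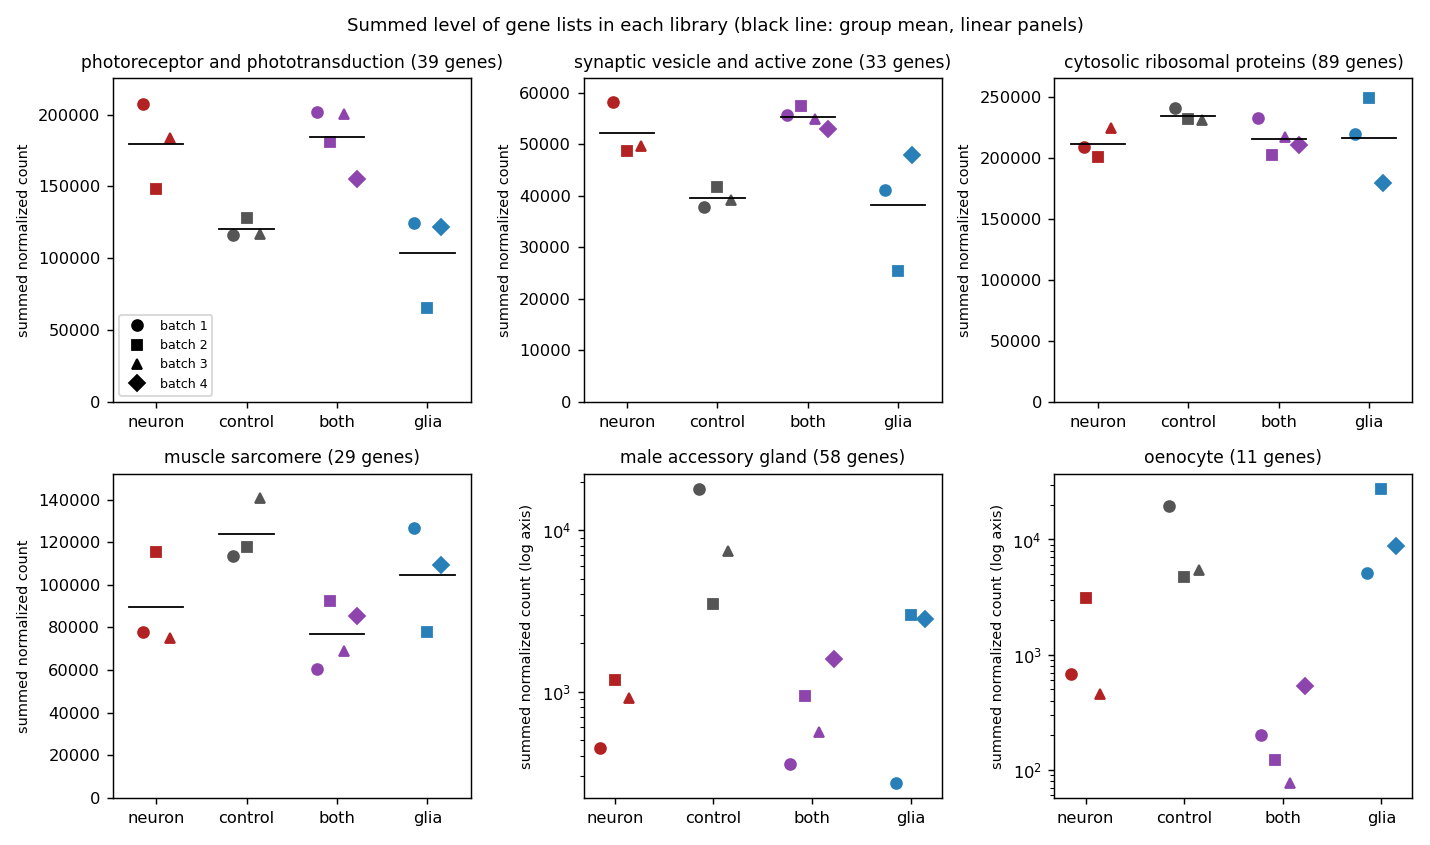
Summed normalized counts of 6 gene lists in each library, with the group mean as a line on the linear axes (4 panels from 0) and log axes for the 2 organ lists. Neuron sums lie above control sums for the photoreceptor and synaptic lists and below them for the ribosomal and both organ lists, and the muscle sum of neuron 2 comes within the control range.

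The same transgene on the background of glial α-synuclein gave a comparison with other libraries. In both against glia, 957 genes passed (7.86%), 379 higher (3.11%) and 578 lower (4.75%). The eye list had a median of 0.82, with 37 of 39 positive (43.7% of all tested genes) and 22 past adjustment on the higher side. The synaptic list had 0.62 with 7 past adjustment, the transmitter list 0.58 with 5, and neuronal identity genes 0.63 with 6 higher and 1 lower. Irk1 was the lower one there too (-0.70, limma adjusted p = 0.0155). The median of each of these lists was larger than in neuron against control, a difference that was not tested. These medians hold for the submitters' scaling. The median log2 level that defines the neuronal scaling was 10.13 to 10.25 in both libraries. It was 9.78, 9.05 and 10.05 in glia 1, 2 and 4. The part of scaling and of glia 2 in the larger medians was not tested. Eye list sums were 201630, 181230, 200250 and 155380 in both 1, 2, 3 and 4, against 124750, 65570 and 121460 in glia 1, 2 and 4. Glia 2 stood far below the other libraries. The count of calls in both against glia was 428 without glia 2, 469, 480 and 461 without both 1, 2 and 3 in turn, and 1876 without glia 4. Organ lists also had negative medians there, with -4.74 for oenocytes and -4.06 for midgut. For the accessory gland, ejaculatory and testis lists they were -1.42, -1.41 and -2.09. Past adjustment on the lower side were 1 of 58, 0 of 6 and 0 of 33 of their genes. The summed ejaculatory share went the other way, at 0.146% to 0.177% in both libraries against 0.0902% to 0.145% in glia libraries. Accessory gland shares overlapped, and that of glia 1 (0.00665%) was below every both library.

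A test of the difference between both contrasts passed 10 genes (0.0821%), and 889 (7.3%) had an unadjusted p under 0.05. In each of the 10 all glia libraries lay above every other library. The count was 0 in turn without both 1, 2 or 3 and without neuron 1, 2 or 3, 1 without control 2, 3 without control 3, 2 without glia 2 and 50 without glia 4. None of the 38 genes named above by the smallest p passed it. An effect of QUAS-Syn that differs with glial α-synuclein was thus not shown for these genes.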

How the data were processed

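RNA was sequenced from Drosophila heads after depletion of ribosomal RNA, as stranded paired-end libraries, per the labels' protocols. The tools listed in the submitters' processing notes are DESeq2, featureCounts, Salmon, STAR, MultiQC and FastQC, with BDGP6 as the build. Versions and settings are not given in the sources used here. The deposited values are a signal named adjusted counts, per the file headers. Each equals 1 plus a number of reads times a factor fixed within its column. Dividing by the factor gave whole reads within 0.0001 in 100% of values. How the 12286 genes were chosen is not stated. The remaining 3 samples of the labels (neuron 4, control 4 and glia 3) were not used here.

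Normalized counts (deposited value minus 1) were tested as log2(normalized count + 1) by limma-trend (limma version 3.58.1, R version 4.3.3), which left 9 residual degrees of freedom, with the 4 groups of all 13 libraries and no batch term. A gene was tested where 4 or more libraries reached a normalized count of 1 (12181 tested, 105 removed). P-values were adjusted by Benjamini-Hochberg at 0.05. On simulated data the fit recovered 55 of 100 planted 2-fold changes and 99 of 100 planted 4-fold changes, with 6 false among 160 calls. The simulated spread followed 1 setting for all genes and low-level genes held no planted change. These rates therefore do not give the power in the real pools. With 3 libraries a group, an exact two-sided permutation test of 1 gene cannot go below p = 0.1 and was not used. Alternatives were another pseudocount, filter, scaling or set of libraries, voom on recovered reads and a replicate block.

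The labels give the batch as the replicate number, so numbers pair the libraries. Deviations from the group mean of same-batch libraries had a median correlation of 0.0697 over 16 pairs, and of 0.106, 0.0843 and 0.173 between neuron and control in batch 1, 2 and 3.

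Genes were named by a rule. Among those with a mean normalized count of at least 5 over the 6 libraries and the same direction in batch 1, 2 and 3, these are the 15 higher with the smallest p, the 15 lower with the smallest p in no organ list and the 8 lower with the smallest p in an organ list. From each list, up to 4 members with the smallest p and a mean of at least 5, the most abundant member of each role and the genes linked to the drivers and vectors could be named. The other rhodopsins, 6 in number, complete their family outside this rule. Members, lists and this comparison were chosen with earlier results of these data known. Symbols that the table holds as dates (5) were restored from the gene name table, which matched 12147 gene IDs, and gene positions are those of Ensembl's BDGP6 annotation.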

Additional observations from a re-analysis of the deposited data

Results flagged for a closer look

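In 10 genes the difference of both minus glia departed from that of neuron minus control by more than the spread (limma adjusted p from 0.0186 to 0.0483 for the difference between the contrasts). The log2 amount was -3.16 for CG9673, -3.82 for CG18493, -2.45 for nub, -4.83 for CG9568 and -1.83 for CG4301. It was -3.20 for Tsp2A, -2.38 for CG9380, -4.54 for CG43349, -3.10 for CG9672 and -1.12 for CG11961. The transcription factor gene nub had 24.3, 22.2, 17.1 and 24.1 in both libraries and 84.5, 99.9 and 139.9 in glia libraries, and 18.6, 23.6 and 21.1 in neuron and 14.9, 17.2 and 22.5 in control libraries. The septate junction gene Tsp2A had 6.39, 6.83, 6.70 and 10.6 in both libraries and 55.9, 89.7 and 127 in glia libraries, and 17.7, 10.0 and 15.4 in neuron and 11.2, 20.3 and 17.2 in control libraries. In all 10 the 3 glia libraries lay above every other library.

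Single libraries of the group both lay far from the other 3 in 11 of 119 genes checked. For values that vary continuously, chance gives about 1 in 20. In 6 of the 11 genes the value was that of 1 read, where the other 3 libraries had none. CG42481, CG15635 and SP had 0.965 normalized counts in both 4, and CG11037, CG42789 and CG43050 had 0.744 in both 3. Such a value always counts as far from the other 3, so the rate of 1 in 20 cannot be applied to these 6 genes. The 11 genes are therefore not evidence of more such libraries than chance gives. Peb had 17.9 in both 1. The carcinine transporter gene CG9317 had 146 in both 2, comt had 815 in both 3, shi had 2212 in both 2 and Caps had 2333 in both 2. Groups of 3 were not checked in this way.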

How the results depend on the processing

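The count of 0 calls in neuron against control held under all other pseudocounts, filters, scalings and models run, and ranged from 0 to 265 when single libraries were left out (94 without control 2, 265 without control 3, 44 without glia 1 and 50 without glia 2). Libraries set to the neuronal lists gave 25 higher and 2044 lower genes at an unadjusted p under 0.05, against 496 and 1006 as reported, and libraries set to the median of all genes gave 954 higher. A filter of 10 normalized counts gave 546 lower and 462 higher, the 6 libraries alone 883 higher, and no libraries of batch 1 gave 124 higher and 408 lower. Higher genes were 1.21% of those at an unadjusted p under 0.05 with the neuronal lists, 57.4% with the median of all genes, 45.8% with the filter of 10 and 45.7% with the 6 libraries, against 33.0% as reported. Leaving out single libraries gave 170 to 1023 higher and 587 to 1334 lower. Calls in both against glia were 957 as reported, 2058 with the median of all genes, 2836 with the neuronal lists, 250 without batch 1 and 428 to 1876 without single libraries. Calls for the difference between contrasts were 10 as reported, 31 with CPM, 6 with the filter of 10, 19 with the offset kept, 4 and 43 with pseudocounts of 0.1 and 5, and 0 to 50 without single libraries. They were 0 with the neuronal lists, with voom and without batch 1. With a replicate block, batch as a factor, they were 0 as well, neuron against control had 0 calls with 519 higher and 1054 lower genes at an unadjusted p under 0.05, and both against glia had 739 calls. The block changed no call in neuron against control. Leaving out batch 1 and the median of all genes were chosen after seeing the data. With the neuronal lists the log2 difference became -0.074 for g, -0.042 for Synj, -0.0095 for Lrrk, -0.016 for Npc2a, -0.031 for repo, -0.12 for w and -0.08 for Hsp70Bb. Without single libraries w ranged from -0.97 to 1.36 and Hsp70Bb from -1.76 to 2.12, and their values were negative at -0.62 and -1.12 without control 1, -0.07 and -0.21 without control 2 and -0.97 and -1.76 without neuron 3. Causes of these changes were not tested, apart from the shift that each scaling adds to all genes. The planned tests with edgeR and DESeq2 were not run, and voom was the one test of recovered reads. At fewer than 10 normalized counts, single reads decide a value.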

Other observations

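Chromosome 4, the small dot chromosome of the fly, was looked at after its values had been seen. Of its 78 tested genes 51 were higher in neuron libraries, where 42.7% of all tested genes were. In 32 the neuron libraries lay above the control libraries without overlap and in 4 below, where 9.97% and 11.1% of all tested genes did. On the higher side 11 had an unadjusted p under 0.05, where 4.07% of all tested genes did. The median log2 difference was 0.12, against -0.06 over all genes, and 0.19 in both against glia, where 58 were positive and 7 passed on the higher side (3.11% of all tested genes). With libraries set to the neuronal lists 0.34 is subtracted from this median, which then becomes negative. Most of the 78 genes had means above 100, where shares of higher genes are larger than over all genes. Of the 4148 tested genes between 100 and 1000, 312 were higher at an unadjusted p under 0.05 and 677 lay above control without overlap. At 1000 or more these counts were 59 and 184 of 723.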
